A study of Mus musculus with 45 samples.

Results

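The genes described here are 10 genes of the major histocompatibility complex (MHC) class I pathway of the mouse: the heavy chain genes H2-K1, H2-D1, H2-T23, H2-Q4 and H2-M3, the light chain gene B2m, the peptide loading genes Tap1, Tap2 and Tapbp, and the regulator gene Nlrc5. They were chosen by name, and 10 of 10 were found in each of 3 gene-level tables that list 55450 identifiers for slice microglia, 47643 for adult microglia and 43411 for brain tissue. The study used C57BL/6 mice and asked how microglia, the resident macrophages of the brain, respond to inflammatory stimuli in organotypic brain slices and in vivo. Slice microglia came from coronal brain slices of neonatal pups kept for 2 weeks in culture and then for 24 h in medium only (9 samples), in medium with TNF at 50 ng/mL (11 samples) or in medium with GM-CSF at 20 ng/mL (9 samples), and each sample pooled 3 slices by the design text or 2 to 3 by the study's own description. The study describes the slice data as pooled from 4 independent experiments. Titles of the in vivo samples carry WT, for wild type. Adult microglia came from mice of 10 to 15 weeks taken 24 h after LPS at 1 mg/kg (4 samples) or PBS (4 samples), and brain tissue came from mice of the same ages collected 24 h after LPS at that dose (4 samples) or with no treatment (4 samples). The brain tissue controls were therefore not injected. By the study's description LPS was given in vivo by intraperitoneal injection, whereas the cytokines were added to the slice medium. Both kinds of microglia were sorted as CD11b high, CD45 intermediate cells, a gate that other macrophages can share, and slice microglia, from pups, are not of the age of the in vivo samples.

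Class I molecules sit on the surface of nearly every nucleated cell and show short peptides from the inside of that cell to CD8 T cells and natural killer cells. A heavy chain folds with the light chain beta-2-microglobulin in the endoplasmic reticulum, the TAP1 and TAP2 proteins pump peptides into that compartment, tapasin (the product of Tapbp) holds the empty class I molecule next to the transporter, and NLRC5 is a transactivator that binds to class I promoters through other factors. H2-K1 and H2-D1 encode the classical heavy chains, whereas H2-T23 (Qa-1), H2-Q4 and H2-M3 encode non-classical ones with a narrower choice of peptide or receptor. In the healthy brain class I levels are low, and interferons and NF-kappaB signals are known to raise them.

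Of the 10 genes, 8 lie on chromosome 17 within 3.36 Mb (33915899 to 37274484, build GRCm38), the region of the mouse MHC. B2m lies on chromosome 2 (122147686 to 122153083) and Nlrc5 on chromosome 8 (94434356 to 94527272). The promoters of H2-K1, H2-D1 and H2-Q4 are shown because they hold the same pair of motifs, and that of B2m because its match lies on the other strand. The sequences are the 200 bases before the RefSeq start of each gene (build GRCm38.p6), read along the gene, with capitals for matches to a kB-like motif (GGGANTNCC) and to the core of an interferon-stimulated response element (ISRE, TTTCNNTT), both searched on either strand. The windows lie at chr17:34000348-34000547 (H2-K1, minus strand), chr17:35262894-35263093 (H2-D1, plus strand), chr17:35379417-35379616 (H2-Q4, plus strand) and chr2:122147487-122147686 (B2m, plus strand).
H2-K1: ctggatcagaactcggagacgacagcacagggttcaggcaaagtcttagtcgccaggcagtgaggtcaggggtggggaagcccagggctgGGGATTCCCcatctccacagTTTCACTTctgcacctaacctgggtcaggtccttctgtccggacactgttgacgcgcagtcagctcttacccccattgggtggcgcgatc
H2-D1: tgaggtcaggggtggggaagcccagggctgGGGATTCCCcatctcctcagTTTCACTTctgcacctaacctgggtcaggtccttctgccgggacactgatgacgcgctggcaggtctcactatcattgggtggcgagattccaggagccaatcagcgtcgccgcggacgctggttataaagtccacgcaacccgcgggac
H2-Q4: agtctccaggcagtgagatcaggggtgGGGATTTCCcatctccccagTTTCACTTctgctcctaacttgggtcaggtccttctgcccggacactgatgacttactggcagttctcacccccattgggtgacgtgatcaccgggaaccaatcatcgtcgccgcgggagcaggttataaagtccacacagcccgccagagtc
B2m: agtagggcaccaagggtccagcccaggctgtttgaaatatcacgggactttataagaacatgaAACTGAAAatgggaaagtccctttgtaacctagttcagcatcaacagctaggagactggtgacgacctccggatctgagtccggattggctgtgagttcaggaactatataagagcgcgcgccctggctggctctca

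RefSeq promoter entries were matched for 8 of the 10 genes, and Tap2 and Nlrc5 had no entry. H2-K1 had 2 entries, and the first was used, so its positions are counted from the start of that entry. Within 250 bases upstream of the start, the ISRE core was found in 6 of the 8 (H2-K1, H2-D1, H2-T23, H2-Q4, H2-M3 and B2m), against 21.3% of 32851 windows of the same length in the RefSeq table. The kB-like motif was found in 3 of the 8 (H2-K1, H2-D1 and H2-Q4), against 3.36% of all windows. In H2-K1 it lay 110 to 102 bases upstream of the start with the ISRE core at 90 to 83, in H2-D1 at 170 to 162 with the ISRE core at 150 to 143, and in H2-Q4 at 173 to 165 with the ISRE core at 153 to 146. The letters of an interferon gamma activated site (GAS, TTCNNNGAA) were found in H2-M3 and in no other of the 8, against 7.02% of windows, and a CCAAT box (ATTGG) in all 8, against 33.8%. The B2m match is AACTGAAA, the reverse complement of the ISRE core, at 137 to 130 bases upstream. No match overlapped a match to another motif, and CCAAT matches are left in lower case. These matches are letters in a window and do not show that a factor was bound.

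Heavy chain genes are close copies of each other, and the share of reads that could come from more than one of them was measured on the GENCODE M21 transcripts. The longest run of coding bases common to H2-K1 and H2-D1 is 91 bases in exon 4, which encodes most of the membrane-proximal alpha 3 domain, and that of H2-D1 and H2-T23 is 145 bases in the same exon. The first run, at chr17:33997343-33997433 (minus strand) in H2-K1 and at chr17:35265911-35266001 (plus strand) in H2-D1, is also found in full in H2-Q6 and H2-Q7. The second lies at chr17:35265827-35265971 in H2-D1 and at chr17:36030910-36031054 (minus strand) in H2-T23. Both are longer than a read of 75 bases, so a read inside them cannot be given to 1 gene.
H2-K1 and H2-D1: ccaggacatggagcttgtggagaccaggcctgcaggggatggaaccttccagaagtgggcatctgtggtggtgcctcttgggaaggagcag
H2-D1 and H2-T23: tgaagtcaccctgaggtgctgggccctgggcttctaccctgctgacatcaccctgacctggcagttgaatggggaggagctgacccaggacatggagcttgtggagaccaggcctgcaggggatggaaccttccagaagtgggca

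At a read length of 75 bases, used for the slice microglia, the share of windows of a gene's transcripts that also occur in another gene was 3.1% for H2-K1, 5.56% for H2-D1, 5.91% for H2-T23 and 20.7% for H2-Q4, and no such window was found for H2-M3 or B2m. At 50 bases, used for adult microglia (as paired ends) and brain tissue (as single ends), the shares were 9.63%, 12.8%, 14.5% and 36.4%, with 0.576% for H2-M3. Not all of this sharing was with other heavy chain genes: 13.4% of the 75-base windows of H2-Q4 were common with the antisense gene Gm11131 and 3.43% with H2-Q6. Tapbp shared 18.6% of its 75-base windows, 17.5% with the antisense gene Gm19412, and Tap2 shared 8.27%, of which 6.56% lay in the overlapping gene Gm15821. Tap1 shared 2.4%, with its neighbour Psmb9, and Nlrc5 0.0462%. Counts of H2-Q4 and Tapbp are therefore the least certain of the set, since the sources used here do not say whether counting used the strand or how reads with several matches were treated.

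Slice libraries held 5973364 to 9165485 counts, while the totals were 8199863 to 10368578 in brain libraries and 11391564 to 14216005 in libraries of adult microglia. Levels are given as CPM (read counts scaled by library size and TMM factors) with the SD over libraries. Genes were tested with edgeR's quasi-likelihood test over all genes of a table, and a gene was called when its Benjamini-Hochberg adjusted p was under 0.05 with a fold change over 1.5. All 10 genes passed the filter on low counts in each table, but in the slices H2-Q4 and Nlrc5 passed through the TNF group: libraries with at least 10 counts numbered 0 of 9 in medium, 11 of 11 with TNF and 2 of 9 with GM-CSF for H2-Q4, and 4 of 9, 11 of 11 and 4 of 9 for Nlrc5. In brain Nlrc5 had at least 10 counts in 3 of 4 untreated and 4 of 4 LPS libraries, so it passed through the LPS group. Counts over the set are therefore also given without H2-Q4 and Nlrc5 in the slices and in brain. The 8 microglia markers were detected in each group, and their summed level was 16731 to 23916 CPM in medium slices, 9246 to 12254 with TNF, 11886 to 13550 with GM-CSF, 52782 to 59163 in PBS microglia, 38172 to 42873 in LPS microglia, 287 to 325 in untreated brain and 253 to 421 in LPS brain.

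One library stood apart in these genes. LPS replicate 2 of adult microglia was the lowest of the 4 LPS libraries in 10 of 10 genes, and its median difference from the PBS mean over the set was -0.10 on the log2 scale, against 0.60 to 0.74 in the other LPS libraries. It was also the shallowest library of its table. Over all genes tested it was the lowest LPS library for 32.1%, against 18.6% to 25.2% for the others. Over the 1872 genes called higher with LPS in adult microglia it was the lowest LPS library for 63.2%, and its median difference from PBS over those genes was 0.74 against 0.95 to 1.01 in the others. Results on LPS in adult microglia are therefore given with and without it.

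B2m had the highest level per kilobase of exon in each of the 7 groups, with 4471 ± 419 CPM per kb in medium slices (SD, n = 9), 2117 ± 112 in PBS microglia (n = 4) and 78.3 ± 3.04 in untreated brain (n = 4). H2-D1 came second in each group, with 476 ± 78.4, 342 ± 33.4 and 13.6 ± 1.19 CPM per kb. H2-K1 held the third place in medium slices at 235 ± 21.3 CPM per kb, followed by Tapbp at 166 ± 13.5. In PBS microglia H2-K1 and Tapbp stood side by side at 148 ± 13.9 and 148 ± 14 CPM per kb, and their libraries overlapped. At the lower end of the microglia groups came Nlrc5 and H2-Q4, which overlapped in each group of microglia and reached 0.293 ± 0.369 and 0.229 ± 0.143 CPM per kb in medium slices. Tap1 and Tap2 were at 12.8 ± 2.02 and 18.6 ± 2.38 CPM per kb in medium slices and 15.3 ± 0.855 and 45.9 ± 1.38 in PBS microglia. Of the 9 steps between neighbours in this order, 2 overlapped in medium slices (H2-M3 with H2-T23 and Nlrc5 with H2-Q4), 3 in PBS microglia and 1 in untreated brain.

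H2-Q4 ranked differently in brain tissue. Its level per kb in untreated brain, 2.22 ± 0.293 CPM, stood beside that of Tap2 (2.35 ± 0.269), and its mean of 5.75 ± 0.760 CPM was the only one of the 10 that was higher in untreated brain than in PBS microglia (2.38 ± 0.855). The other 9 genes were higher in PBS microglia, as with H2-K1 at 434 ± 40.8 CPM in microglia and 22.7 ± 0.934 in brain. These tables were made with different library kits and normalized separately, so values set across them are descriptions and were not tested.

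**Figure D1:**
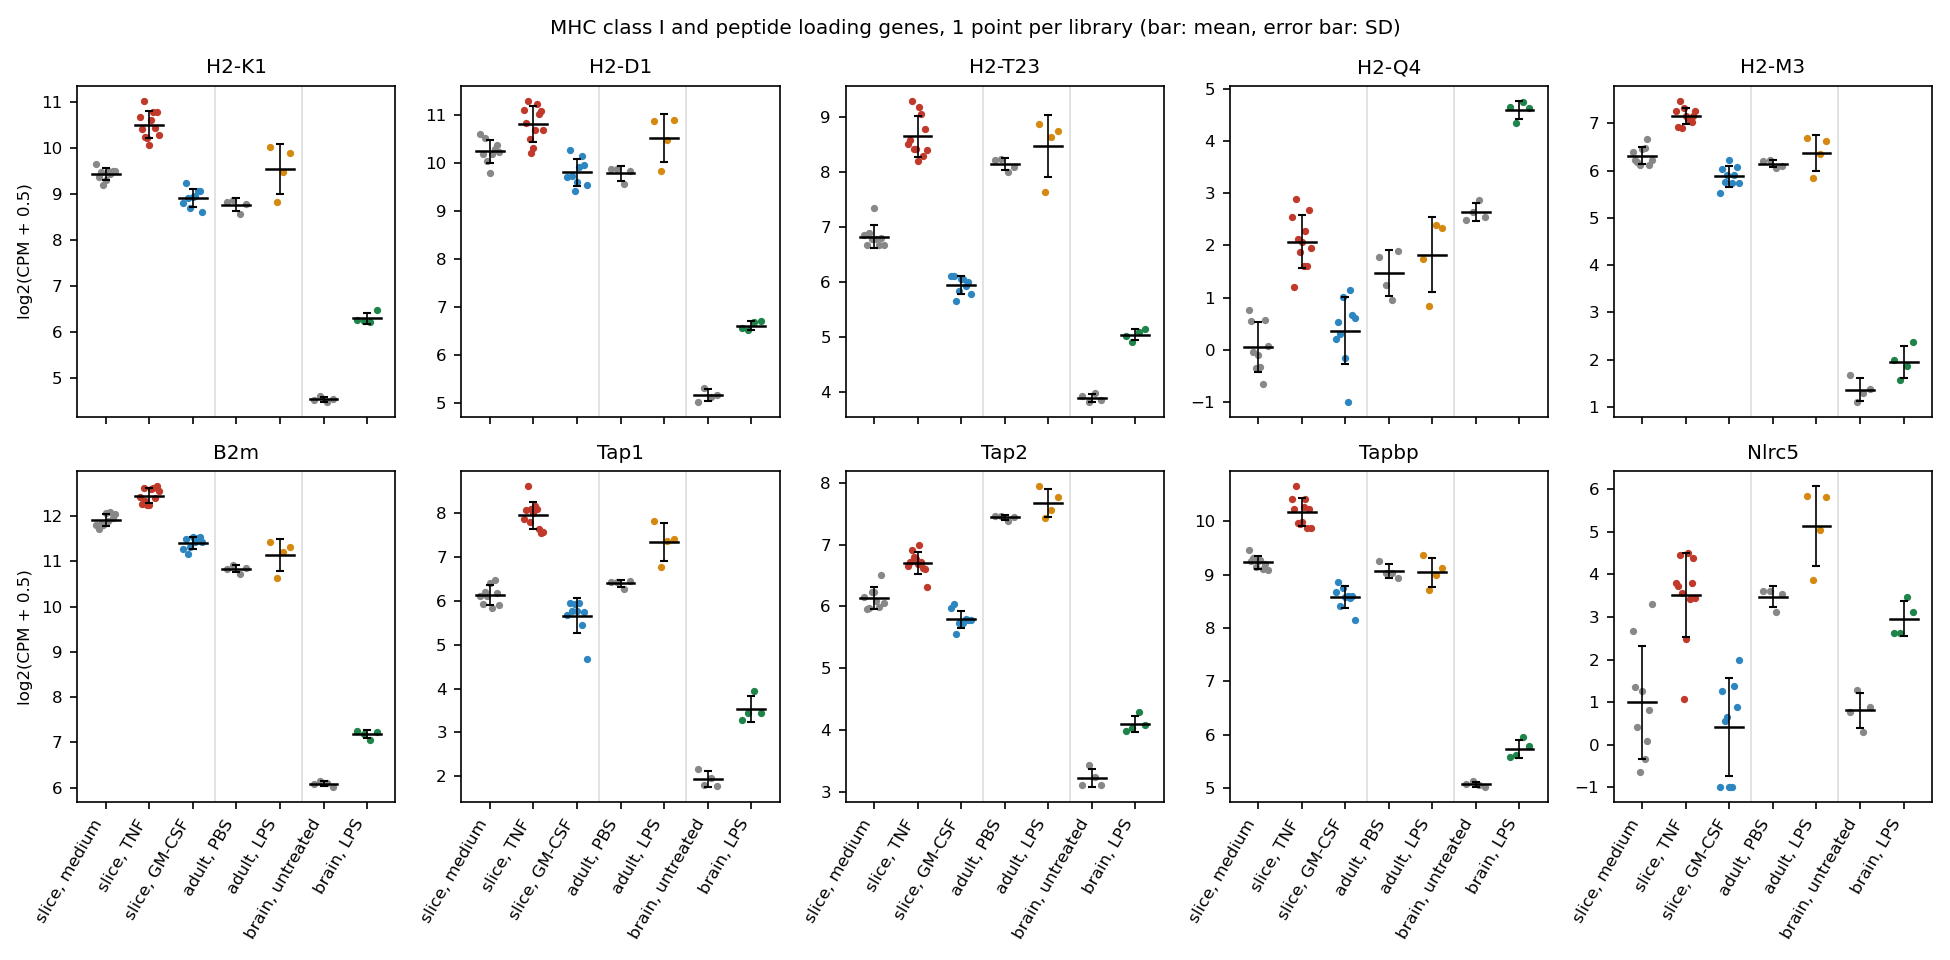
Level of each of the 10 genes as log2(CPM + 0.5), 1 point per library in the 7 groups, with a bar at the mean and the SD as error bar; each panel has its own axis, and the grey lines part the 3 tables. The 11 TNF libraries lie above the 9 medium libraries in 7 of the 10 panels, the 4 LPS brain libraries lie above the untreated ones in 9, and 1 LPS library of adult microglia lies low in each panel.

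TNF raised 6 of the 8 genes other than H2-Q4 and Nlrc5 in slice microglia, and 0 fell. Among all 11313 genes tested, 9.10% were called higher and 11.7% lower. H2-T23 rose 3.63-fold, Tap1 3.58-fold, H2-K1 2.12-fold and Tapbp 1.94-fold, while B2m and Tap2 differed by 1.46-fold and 1.49-fold with adjusted p-values under the threshold and folds under the limit. The median log2 fold change of the 8 genes was 0.90, against -0.03 over all genes tested. In 6 of the 8 each TNF library lay above each medium library, a pattern seen in this direction in 6.25% of all genes tested. With H2-Q4 and Nlrc5, which entered the test through their TNF libraries, the counts were 8 of 10 called and 7 of 10 without overlap, and the median was 1.02.

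Of the classical heavy chains, H2-K1 ran from 1063 to 2065 CPM (median 1382) in the 11 TNF libraries and from 579 to 796 (median 711) in the 9 medium libraries. The groups did not overlap (log2 fold change 1.09, SE 0.09, edgeR adjusted p = 1.32e-11). H2-D1 ran from 1182 to 2507 CPM (median 1814) with TNF and from 883 to 1546 (median 1196) in medium. Here 8 of 11 TNF libraries lay above each medium library, and the fold of 1.51 (log2 0.59, SE 0.12, adjusted p = 2.45e-04 by edgeR) was only just over the limit. Its call was lost, with the direction kept, with total counts in place of TMM factors (log2 0.52), with limma-voom (log2 0.57), with the replicate number as a block (log2 0.56), and within the samples whose titles carry the codes 1A and 1B (log2 0.42, adjusted p = 0.152).

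Among the non-classical heavy chains, H2-T23, whose product presents a class I leader peptide to natural killer cell receptors, ran from 294 to 627 CPM (median 366) with TNF and from 101 to 162 (median 109) in medium. No library of the groups overlapped (log2 1.86, SE 0.12, edgeR adjusted p = 7.05e-15). H2-M3, which presents formylated peptides, ran from 119 to 177 CPM with TNF and from 69.0 to 101 in medium (log2 0.83, SE 0.09, adjusted p = 1.05e-09 by edgeR). H2-Q4 was near the limit of detection in medium, with 1 to 9 counts per library and 0.139 to 1.2 CPM, and reached 15 to 56 counts and 1.81 to 6.88 CPM with TNF. Its fitted log2 fold change was 2.69 (SE 0.44), given as a description, since the gene entered the test through its TNF libraries.

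The light chain gene B2m ran from 4818 to 6442 CPM with TNF and from 3333 to 4330 in medium. The groups did not overlap, and the change stayed under the fold limit (log2 0.54, SE 0.07, edgeR adjusted p = 1.93e-08). The transporter genes differed from each other in their response. Tap1 ran from 186 to 389 CPM (median 257) with TNF and from 56.8 to 88.9 (median 69.0) in medium (log2 1.84, SE 0.13, edgeR adjusted p = 8.04e-14), whereas Tap2 ran from 78.7 to 127 (median 105) and from 61.9 to 90.3 (median 67.4), with a log2 fold change of 0.58 (SE 0.08). The 95% intervals of these changes, 1.59 to 2.09 for Tap1 and 0.42 to 0.73 for Tap2, did not overlap, and the difference between the genes was not itself tested. Tap2 was called with limma-voom (log2 0.59), with the replicate block (log2 0.63) and within the title codes 1A and 1B (log2 0.68).

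Tapbp, the tapasin gene, ran from 934 to 1612 CPM (median 1203) with TNF and from 545 to 701 (median 608) in medium (log2 0.96, SE 0.09, edgeR adjusted p = 5.37e-11). Nlrc5 was the most variable gene of the set, with 1.59 to 22 CPM (median 12.8) with TNF and 0.145 to 9.44 (median 1.26) in medium. Of the 11 TNF libraries 9 lay above each medium library (fitted log2 fold change 2.37, SE 0.57, a description for the same reason as with H2-Q4). The TNF libraries did not all have the same levels. TNF replicate 3 was the highest in 7 of the 10 genes and above the TNF mean in 10 of 10, with a median of 0.50 over that mean on the log2 scale, and the 3 TNF libraries with the code 1B were the lowest in 6 of the 10 between them, each with a median from -0.21 to -0.18. The 1 medium library with the code 1B was low as well, lowest in 3 of the 10 genes with a median of -0.16 from the medium mean. Both GM-CSF libraries with this code were at -0.10 and -0.02. How often these libraries were highest or lowest over all genes was not measured. What the title codes stand for is not stated in the labels. Summed neutrophil markers were at 2.11 to 113 CPM (median 7.87) with TNF and 0.134 to 14 in medium, with Ly6g at 0 in both, and Cd8a was at 0 in both. Border macrophage and monocyte markers summed to 288 to 516 CPM with TNF, 265 to 640 in medium and 249 to 766 with GM-CSF. In PBS microglia, normalized apart, they summed to 16.2 to 22.2 CPM. Of 4 such genes tested in the slices, TNF lowered 2 and raised 0, from Lyve1 (log2 -3.15) to F13a1 (log2 0.19). The part of these markers' cell types in the slice results was not tested.

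GM-CSF gave the opposite sign in 9 of the 10 genes, mostly under the fold limit. H2-T23 fell 1.86-fold and Tapbp 1.56-fold, so that 2 of 10 were called lower, against 5.96% of all genes, and 0 were called higher, against 4.84%. The adjusted p was under 0.05 at any fold for 8 of the 10, against 25.6% of all genes. The median log2 fold change of the set was -0.47, against -0.04 over all genes, and it was also -0.47 without H2-Q4 and Nlrc5. In 3 genes (H2-T23, B2m and Tapbp) each GM-CSF library lay below each medium library, against 2.67% of all genes in this direction.

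H2-T23 ran from 49.7 to 68.7 CPM (median 63.9) with GM-CSF, against 101 to 162 in medium (log2 -0.89, SE 0.12, edgeR adjusted p = 9.41e-07). Tapbp ran from 284 to 466 CPM (median 385) against 545 to 701 (log2 -0.64, SE 0.09, adjusted p = 1.48e-06 by edgeR), and its call was lost with total counts (log2 -0.54). B2m ran from 2294 to 2985 CPM against 3333 to 4330, with no overlap (log2 -0.50, SE 0.07). The 5 other genes with an adjusted p under 0.05 had log2 fold changes from -0.51 (H2-K1, SE 0.10) to -0.35 (Tap2, SE 0.08), with H2-D1 at -0.43, H2-M3 at -0.44 and Tap1 at -0.45. H2-Q4 (log2 0.56, SE 0.48) and Nlrc5 (log2 -1.05, SE 0.65) did not pass the test, at a median of 7 and 8 counts per GM-CSF library. The 95% intervals of these changes, -0.38 to 1.5 and -2.33 to 0.23, leave changes of more than the fold limit in either gene possible.

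Set directly against GM-CSF, TNF gave higher levels in 8 of the 8 genes other than H2-Q4 and Nlrc5, against 8.25% of all genes called in this direction. The folds ran from 1.90 for Tap2 (log2 0.93, SE 0.08, edgeR adjusted p = 1.67e-11) to 6.74 for H2-T23 (log2 2.75, SE 0.12, adjusted p = 7.11e-19). The libraries did not overlap in 7 of the 8, against 5.30% of all genes, and the exception was H2-D1, with 10 of 11 TNF libraries above each GM-CSF library. As a description, the fitted log2 differences of H2-Q4 and Nlrc5 were 2.12 (SE 0.42) and 3.41 (SE 0.60), and of this pair H2-Q4 had no overlap. The comparisons of TNF and GM-CSF with medium share their 9 medium libraries, so their values for a gene are not independent. With total counts the split of all calls between TNF and GM-CSF moved from 933 higher and 900 lower to 694 higher of 2208, and that for GM-CSF from 548 higher of 1222 to 814 of 1274, while the 10 genes kept their directions. That scaling moved the median of all genes from -0.04 to 0.07 for GM-CSF and from -0.02 to -0.19 for TNF against GM-CSF, and the medians of the 10 genes to -0.37 and 1.43.

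**Figure D2:**
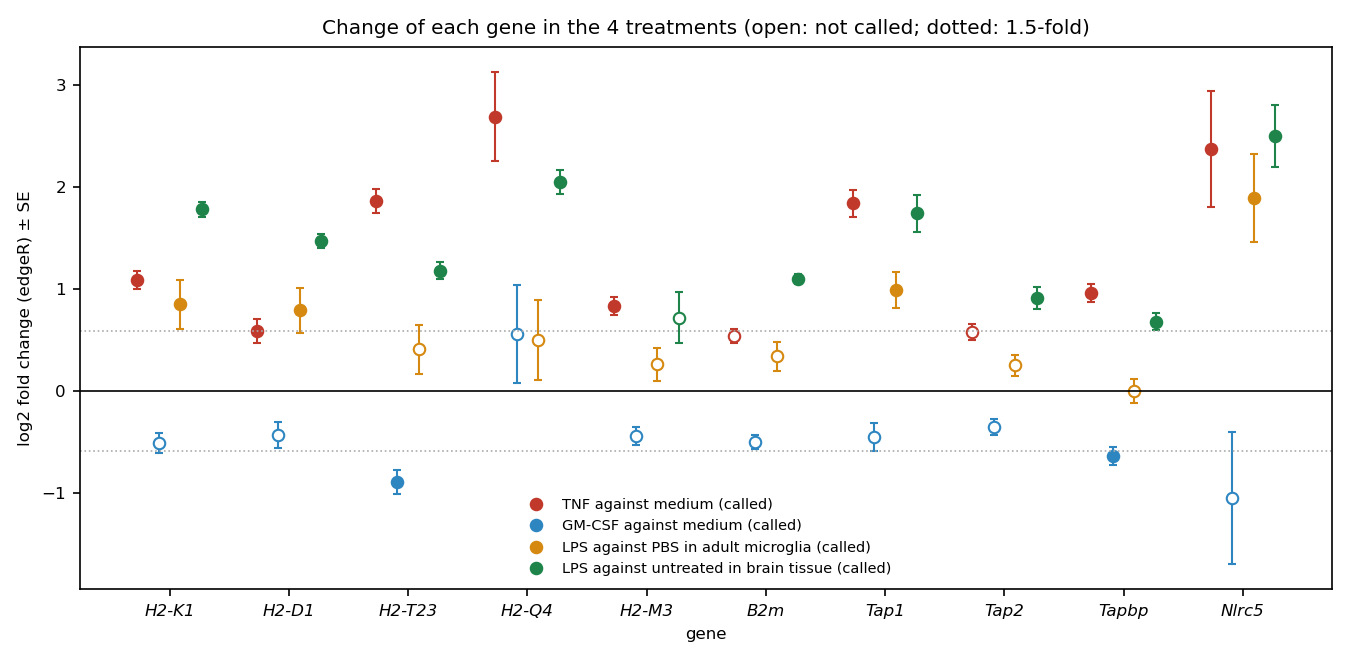
Log2 fold change of each gene (edgeR, error bar SE) for TNF and GM-CSF against medium in slice microglia and for LPS against control in adult microglia and in brain tissue; filled points were called, open points were not, and dotted lines mark 1.5-fold. TNF points run from 0.54 to 2.69, GM-CSF points from -1.05 to 0.56, LPS points of adult microglia from 0.00 to 1.89 and those of brain tissue from 0.68 to 2.5.

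In adult microglia LPS raised 4 of the 10 genes: Nlrc5 3.71-fold, Tap1 1.99-fold, H2-K1 1.80-fold and H2-D1 1.73-fold. Of all 12987 genes 14.4% were called higher. The median log2 fold change of the set was 0.45, against 0.01 over all genes. Only Tap1 and Nlrc5 had LPS libraries that all lay above the PBS libraries, 2 of 10 genes against 24.1% of all genes. In the other 8 genes LPS replicate 2 lay within or below the PBS range.

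The PBS libraries of H2-K1 were at 452, 467, 375 and 440 CPM and the LPS libraries at 1029, 448, 707 and 942 CPM in replicate order. Replicate 2 of LPS thus fell within the PBS range, and the others were above it (log2 0.85, SE 0.24, edgeR adjusted p = 0.0184). H2-D1 was at 932, 934, 755 and 912 CPM with PBS and at 1876, 905, 1437 and 1899 CPM with LPS (log2 0.79, SE 0.22, adjusted p = 0.0159 by edgeR). Here too 3 of 4 LPS libraries were above the PBS range. Both calls were lost when genes with few counts were kept in the test (adjusted p = 0.0690 for each), and that of H2-K1 also without LPS replicate 4 (log2 0.75, adjusted p = 0.0565).

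Tap1 was at 85.9, 86.0, 76.8 and 86.4 CPM with PBS and at 226, 109, 163 and 169 CPM with LPS. Each LPS library was above each PBS library (log2 0.99, SE 0.18, edgeR adjusted p = 0.00194). Nlrc5 was at 11.7, 11.8, 8.13 and 11.2 CPM with PBS and at 56.5, 14, 32.4 and 55.9 CPM with LPS, again with no overlap, although replicate 2 was close to PBS (log2 1.89, SE 0.43, adjusted p = 0.00819 by edgeR). H2-T23 was at 297, 303, 257 and 273 CPM with PBS and at 469, 199, 398 and 430 CPM with LPS. For this gene LPS replicate 2 was below the PBS range and the other 3 above it, and the test was not passed (log2 0.41, SE 0.24, edgeR adjusted p = 0.200). B2m showed the same order, with 1815, 1923, 1693 and 1852 CPM with PBS and 2746, 1592, 2345 and 2548 CPM with LPS (log2 0.34, SE 0.14, adjusted p = 0.0664). Tapbp did not separate by treatment, at 489 to 609 CPM with PBS and 419 to 658 with LPS, and the 95% interval of its log2 fold change was -0.24 to 0.24. The log2 fold changes of H2-Q4, H2-M3 and Tap2 were 0.50, 0.26 and 0.25, and none was called.

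Without LPS replicate 2, 5 of 10 genes were called higher, with H2-T23 added (log2 0.62, edgeR adjusted p = 1.6e-05), and the median log2 fold change was 0.69. The 4 genes called with all libraries were then at 2.17 (Nlrc5), 1.15 (Tap1), 1.04 (H2-K1) and 0.98 (H2-D1), with adjusted p-values from 2.07e-06 to 3.65e-05. B2m was at 0.49 with an adjusted p of 8.04e-05, under the fold limit, and Tapbp at 0.10. In LPS replicate 2 Stat2, a transcription factor of interferon signalling, was at 77.3 CPM against 165 to 176 in the other LPS libraries and 47.3 to 53.0 in PBS. The part of this library's difference in the result for the class I genes was not tested beyond leaving it out. Neutrophil markers were lower with LPS, with a summed level of 1.61 to 7.66 CPM against 32.6 to 69.4 with PBS, Ly6g and Retnlg being at 0 with LPS. Lymphocyte markers summed to at most 0.359 CPM in either group, with Cd3e, Cd8a and Nkg7 at 0. Border macrophage and monocyte markers summed to 27.7 to 40.6 CPM with LPS and 16.2 to 22.2 with PBS, but did not move together. Of 7 such genes 4 were tested, with 2 called higher and 1 lower. Their log2 fold changes ran from -0.81 for Ccr2 to 4.30 for F13a1. Endothelial markers summed to 10.2 to 13.7 CPM with LPS and 28.9 to 36.3 with PBS, with Cldn5 at 0 in both, and oligodendrocyte markers to 57.9 to 67.5 and 74.8 to 87.3 CPM. The part of these cell types in the result was not tested.

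**Figure D3:**
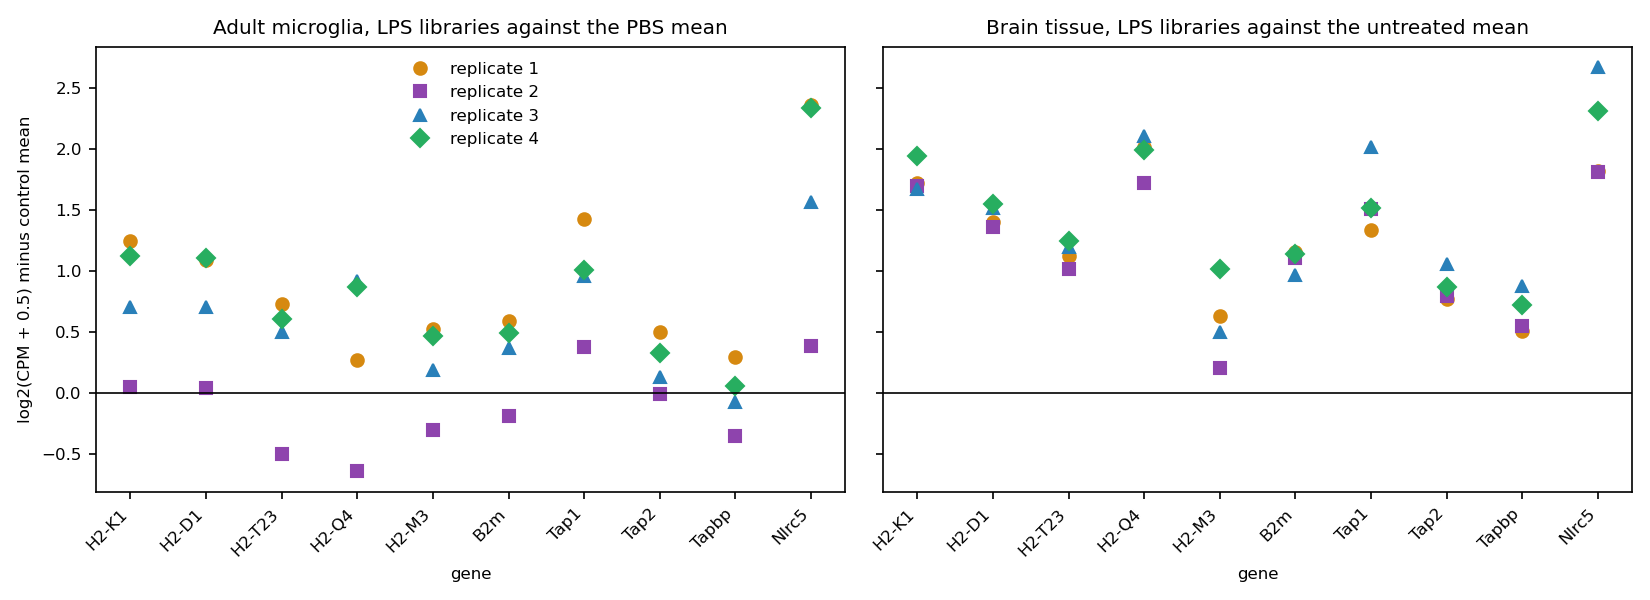
Difference of each LPS library from the mean of its control group, as log2(CPM + 0.5), for the 10 genes in adult microglia (left) and brain tissue (right), with a marker for each replicate. In adult microglia replicate 2 is the lowest point for each gene, with a median of -0.10, and in brain tissue the medians of the 4 libraries run from 1.23 to 1.39.

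In brain tissue LPS raised 9 of the 10 genes, where 2.63% of all 15083 genes were called higher. The folds were 5.67 for Nlrc5, 4.14 for H2-Q4, 3.44 for H2-K1, 3.34 for Tap1, 2.76 for H2-D1, 2.26 for H2-T23, 2.15 for B2m, 1.87 for Tap2 and 1.6 for Tapbp. The same 9 genes had no overlap between LPS and untreated libraries, against 9.09% of all genes in this direction. The median log2 fold change was 1.32, against 0.00 over all genes. Nlrc5 passed the filter on low counts through its LPS libraries. Without H2-Q4 and Nlrc5, 7 of 8 genes were called and 7 of 8 did not overlap. The median of these 8 was 1.14. In bulk tissue, more cells of a type and more RNA per cell cannot be told apart.

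H2-K1 was at 22.3, 24.0, 21.8 and 22.6 CPM in untreated brain and at 76.1, 75, 73.2 and 88.3 CPM with LPS. The spread within each group was small beside the step between them (log2 1.78, SE 0.07, edgeR adjusted p = 4.34e-10). H2-D1 went from 31.8 to 39.2 CPM to 90.4 to 103 (log2 1.47, SE 0.07) and B2m from 63.8 to 70.2 CPM to 133 to 151 (log2 1.10, SE 0.05), each with an adjusted p of 2.25e-09 by edgeR. H2-T23 was at 13.6 to 15.2 CPM untreated and 29.6 to 34.9 CPM with LPS (log2 1.18, SE 0.08, edgeR adjusted p = 2.01e-07). H2-Q4 was at 5.13, 5.73, 6.83 and 5.33 CPM untreated and at 24.8, 20.0, 26.4 and 24.3 CPM with LPS, on 51 to 66 and 170 to 235 counts (log2 2.05, SE 0.12, edgeR adjusted p = 4.00e-08). H2-M3, the gene that was not called, was at 2.71, 1.65, 1.97 and 2.09 CPM untreated and at 3.48, 2.48, 3.14 and 4.72 CPM with LPS, on 17 to 42 counts per library. Its log2 fold change of 0.72 had an SE of 0.25 (edgeR adjusted p = 0.0795), and it was called without LPS replicate 2 (log2 0.84, adjusted p = 0.0443).

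Tap1 was at 2.93 to 4.02 CPM untreated and 9.18 to 15.0 CPM with LPS (log2 1.74, SE 0.18, edgeR adjusted p = 1.35e-05). Tap2 and Tapbp rose less, from 8.14 to 10.3 CPM to 15.4 to 19.0 (log2 0.91, SE 0.11) and from 31.8 to 34.4 CPM to 47.4 to 61.2 (log2 0.68, SE 0.08). Nlrc5 rested on few counts, 7 to 20 per untreated library and 48 to 88 with LPS, at 0.724 to 1.94 and 5.66 to 10.6 CPM. Its fitted log2 fold change of 2.5 (SE 0.30) is a description, since the gene entered the test through its LPS libraries. The order of the changes in brain, with Nlrc5, H2-Q4 and H2-K1 first and Tapbp and H2-M3 last, had its largest and smallest log2 fold changes at 2.5 and 0.68. Summed endothelial markers were also higher in brain after LPS, at 296 to 334 CPM against 217 to 229 untreated. So were border macrophage and monocyte markers, at 10.2 to 14.6 against 5.83 to 7.55 CPM, and neutrophil markers, at 3.06 to 7.41 against 0.503 to 1.03 CPM. Of 6 endothelial genes 3 were called higher, and the log2 fold changes ran from -0.09 (Flt1) to 1.57 (Ly6c1). Of 4 border macrophage and monocyte genes tested 2 were called higher, and Mrc1 was at 0 in both groups. S100a9 was the only neutrophil gene tested (log2 3.05), and Ly6g was at 0 in both groups. Oligodendrocyte markers were lower, at 3540 to 4094 against 4826 to 5180 CPM. Microglia markers overlapped between the groups, and lymphocyte markers were at 9.43 to 11.1 CPM with LPS and 11.6 to 13.6 untreated, with Cd8a and Nkg7 at 0 in untreated brain and Klrb1c and Ms4a1 at 0 with LPS. The part of these cell types in the result was not tested.

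The effect of LPS was larger in brain tissue than in sorted adult microglia for 6 of the 10 genes. These were H2-Q4, H2-K1, B2m, Tapbp, H2-D1 and Tap2, by an interaction term fitted on 16 in vivo libraries, in which 10.6% of all 16676 genes were called in this direction. The differences of the log2 fold changes, adult microglia minus brain, were -1.56 for H2-Q4 (SE 0.39, edgeR adjusted p = 0.00488), -0.94 for H2-K1 (SE 0.28, adjusted p = 0.0170), -0.77 for B2m (SE 0.16, adjusted p = 0.00107), -0.69 for Tapbp (SE 0.16, adjusted p = 0.00226), -0.68 for H2-D1 (SE 0.25, adjusted p = 0.0467) and -0.66 for Tap2 (SE 0.15, adjusted p = 0.00210). The sign was the same for the other 4 genes, which did not pass: H2-T23 at -0.78, Tap1 at -0.76, Nlrc5 at -0.62 and H2-M3 at -0.47. The median over the 10 genes was -0.72, against -0.02 over all genes. Without LPS replicate 2 of adult microglia 6 genes were again called, with Tap1 (log2 -0.60, adjusted p = 0.0476) in and H2-D1 (log2 -0.50) out, and the median was -0.59. The call of H2-D1 was lost in 12 of the 16 fits that left out 1 library, with limma-voom (adjusted p = 0.124) and with no filter on low counts (adjusted p = 0.155), and that of H2-K1 with limma-voom (adjusted p = 0.0582) and with no filter (adjusted p = 0.0601). Tissue, library kit and kind of control differ together between the 2 tables and cannot be told apart from the tissue itself.

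Since reads can be shared between heavy chain genes, the counts of 18 class I heavy chain genes were summed to 1 feature in each library. The sum changed by a log2 of 1.01 with TNF (edgeR adjusted p = 9.78e-10), -0.48 with GM-CSF (adjusted p = 9.63e-04), 1.49 for TNF against GM-CSF (adjusted p = 1.34e-13), 0.72 with LPS in adult microglia (adjusted p = 0.0276) and 1.34 with LPS in brain (adjusted p = 4.51e-10). These values do not depend on how reads were divided among the 18 genes, although relatives outside them, such as Gm7030 and Gm11127 for H2-T23, were not in the sum. For the difference of the LPS effects the sum was at -0.63 with an edgeR adjusted p of 0.0612. The sum of the 18 genes was thus not called in that comparison, whereas H2-K1, H2-D1 and H2-Q4 were. It takes in other heavy chain genes and is not a check of H2-K1, H2-D1 and H2-Q4 alone.

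The rest of the pathway was described by lists, each with its highest and lowest gene; other genes of a list named here were chosen after their values were seen. Of all genes tested, TNF had 9.10% called higher and 11.7% lower, and GM-CSF 4.84% higher and 5.96% lower. LPS had 14.4% called higher in adult microglia and 2.63% in brain. Counts called in a list stand beside these shares. Of the 17 other class I heavy chain genes, 9 were tested in slice microglia, and with TNF 5 of them rose and 3 fell (median log2 fold change 2.59). The largest was H2-M2 (log2 4.0, SE 0.28, edgeR adjusted p = 2.05e-12), at 64.5 to 209 CPM with TNF and 3.69 to 16.1 in medium. H2-M2 shares none of its 75-base windows with another gene. H2-Q6 and H2-Q7, which encode Qa-2 chains, were at log2 3.86 and 3.67, and H2-T22, a ligand of some gamma delta T cell receptors, at 2.59, with 21.1%, 17% and 40% of 75-base windows shared. The genes that fell were Hfe, an iron regulator (log2 -2.17, SE 0.10), Fcgrt, the neonatal Fc receptor (log2 -1.45, SE 0.08), and Mr1, which presents vitamin B metabolites (log2 -0.86, SE 0.12). GM-CSF lowered 3 of the 9, H2-T24, Hfe and H2-Q7 (log2 -1.58, -1.29 and -0.93), and raised 0. LPS raised 1 of 10 in adult microglia (Fcgrt, log2 0.67), against 14.4% of all genes, and lowered 1 (Cd1d1, a lipid presenter, log2 -0.75). In brain 2 of 11 were called higher, H2-Q6 (fitted log2 3.08, SE 0.42) and H2-Q7 (log2 2.52, SE 0.53), against 2.63% of all genes. H2-Q6 was at 0.414 to 0.680 CPM untreated and 2.18 to 6.96 with LPS. It passed the filter through its LPS libraries, so its value is a description. At 50 bases, 35% and 26.5% of the windows of H2-Q6 and H2-Q7 were shared.

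The genes that make peptides followed TNF as well. Of the 5 immunoproteasome and PA28 genes, whose products form and cap the inducible proteasome, 5 rose with TNF, against 9.10% of all genes. They ran from Psme1 at a log2 of 1.00 to Psme2 at 1.46, and the 3 constitutive counterparts rose by less, from Psmb7 at 0.66 to Psmb6 at 0.78. GM-CSF changed 0 of these 8 genes (log2 fold changes from -0.30 for Psmb9 to 0.31 for Psme2), although 2 of the 10 class I genes were called lower. LPS in adult microglia raised Psme1 (log2 0.66) and Psme2 (log2 0.74) and none of the catalytic subunits, with Psmb8 at 137 to 153 CPM with PBS and 138 to 178 with LPS, and Psmb9 at a log2 of -0.31. In brain, LPS raised Psmb8 (log2 1.81, SE 0.20, edgeR adjusted p = 1.78e-05), which went from 1.71 to 3.00 CPM to 6.86 to 9.79, and 0 of the other 4.

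Of the 7 other loading and trimming genes, TNF raised Tapbpl, a tapasin relative (log2 0.85, SE 0.12), and Hspa5, an endoplasmic reticulum chaperone (log2 0.62, SE 0.06), and GM-CSF changed none. LPS in adult microglia raised 5 of the 7, against 14.4% of all genes. These were Hspa5 (log2 1.72), Calr (calreticulin, log2 1.19), Pdia3 (the disulfide isomerase of the loading complex, log2 0.96), Uggt1 (log2 0.89) and Erap1 (the trimming peptidase, log2 0.71). Calr was at 2133, 2073, 1821 and 2179 CPM in the 4 LPS libraries and at 847 to 928 with PBS. For Calr, LPS replicate 2, low in the class I genes, was within the range of the others. Hspa5 was at 3220, 2775, 2889 and 3529 CPM with LPS and at 877 to 1018 with PBS, and replicate 2 was the lowest LPS library. In brain Erap1 rose (log2 0.64, SE 0.10), and 6 of the 7 were not called.

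Among the regulators of class I promoters, TNF raised Stat2 (log2 2.30, SE 0.14), Irf1 (log2 1.35, SE 0.14) and Irf9 (log2 0.77, SE 0.09), which carry interferon signals, and GM-CSF lowered Nfkb1 (log2 -0.82), Irf1 (log2 -0.78) and Stat2 (log2 -0.78). LPS raised Stat2 (log2 1.54) and Irf9 (log2 0.77) in adult microglia, where Nfkb1 (log2 -0.94) and Rfx5 (log2 -0.67) fell. In brain it raised Irf9 (log2 1.06), Irf1 (log2 0.72) and Irf8 (log2 0.68). The genes of the RFX and NF-Y complexes, which NLRC5 uses to reach class I promoters, gave 0 calls with TNF, GM-CSF and in brain. Of the interferons and their receptors, Ifng and Ifnb1 did not pass the filter in any table, TNF raised Ifnar1 (log2 0.68) and lowered Ifngr1 (log2 -0.73), GM-CSF lowered Ifngr1 (log2 -0.78), and LPS changed none of the 4 receptor genes tested in either table.

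Class II genes did not follow the class I set in every treatment. Cd74, the invariant chain gene, rose with TNF (log2 1.35, SE 0.14) and most with LPS in adult microglia (log2 2.52, SE 0.20, edgeR adjusted p = 1.70e-05), from 27 to 37.0 CPM to 130 to 248. H2-Eb1 fell in the same comparison (log2 -1.81, SE 0.37), and in brain 0 of 5 class II genes were called, with a median log2 fold change of -0.73. GM-CSF changed 0 of the 2 class II genes tested in the slices.

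**Figure D4:**
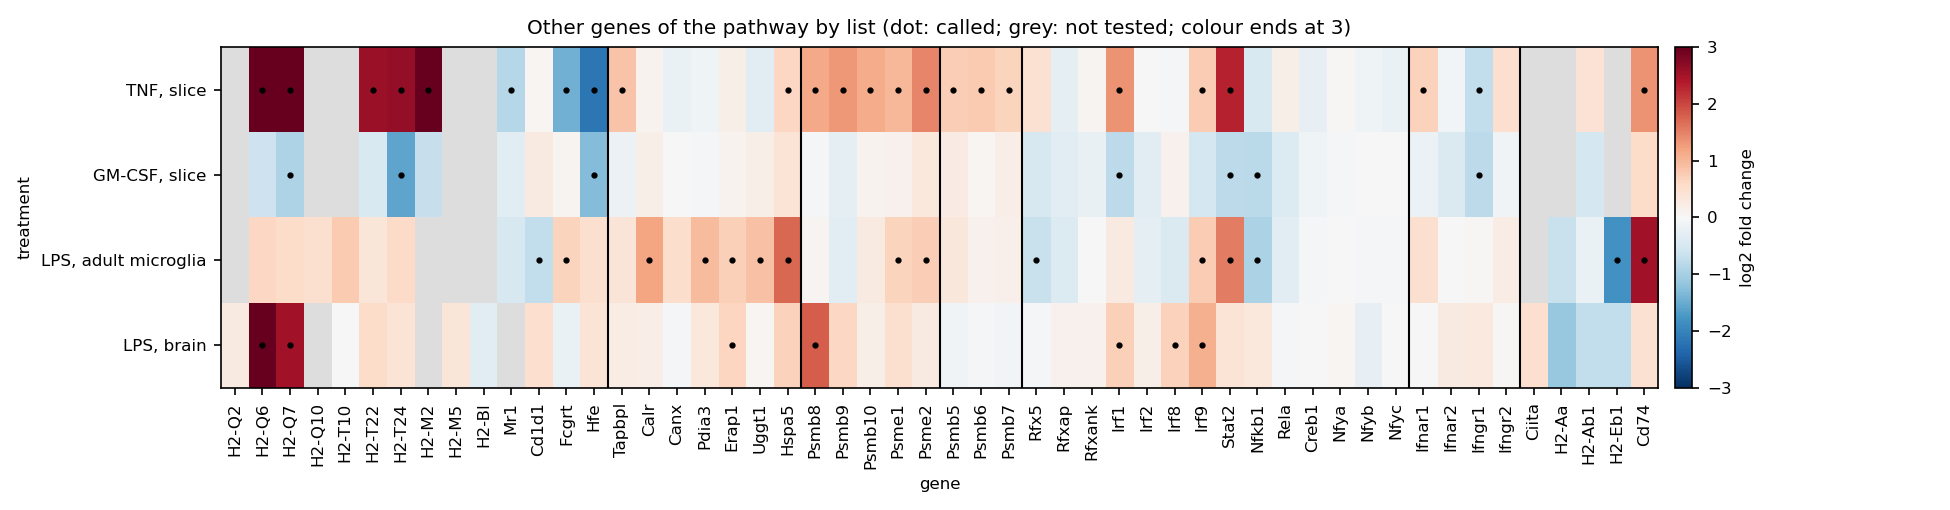
Log2 fold change (colour, limited at 3 in either direction) of the other genes of the pathway in the 4 treatments; vertical lines part the lists (other heavy chains, loading and trimming, immunoproteasome and PA28, constitutive proteasome, regulators, interferon receptors, class II), dots mark called genes and grey genes were not tested. All 5 immunoproteasome and PA28 genes carry a dot with TNF and none with GM-CSF, and 5 loading and trimming genes carry one with LPS in adult microglia.

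The genes most like the set were sought over the 4 treatments among 9632 genes outside the lists, by the distance of their 4 log2 fold changes from the medians of the 10 genes. The nearest was Parp9, an interferon-induced ADP-ribosyltransferase, at a distance of 0.452, with log2 fold changes of 1.19 with TNF, -0.63 with GM-CSF, 0.84 with LPS in adult microglia and 1.32 with LPS in brain. It was followed by Lgals9 (distance 0.461), Icosl (0.514), Pik3ap1 (0.528) and Uba7 (0.614). Among the 10 genes themselves the distances ran from 0.538 for B2m to 2.09 for H2-Q4 and 2.37 for Nlrc5. Likeness over 4 comparisons, of which 2 share their controls, is a description and carries no test.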

How the data were processed

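Gene expression was measured by RNA-seq in 45 samples of 7 groups. The authors deposited whole-number counts per gene for slice microglia, made with STAR 2.7.0a and featureCounts of Subread 1.6.4 on mm10 per the submitters' processing notes. For adult microglia and brain tissue the authors deposited expected counts, whose aligner is not given in the sources used here. Expected counts were rounded. Microglia libraries were made with SMART-Seq v4 and Nextera XT and brain libraries with TruSeq, so tables were fitted apart, except for the interaction.

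Genes passing filterByExpr (minimum count 10, minimum total 15) were tested in edgeR 4.0.16 (quasi-likelihood, robust, TMM, Benjamini-Hochberg over all genes), with all 29 slice libraries in 1 fit. Called genes had an adjusted p under 0.05 and a fold over 1.5, the study's thresholds. CPM per kb used GENCODE merged exon lengths. Library totals bound counting precision: genes under 10 counts are imprecise. Limma 3.58.1 and DESeq2 1.42.0 were alternatives, and the fits were tested on simulated data.

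The 10 genes, the lists and the markers were chosen with earlier results of these data known. All members were described in each comparison, list genes by highest and lowest change, and like genes by distance of log2 fold changes. By the study's description the in vivo samples came from independent mice. Which animals the slices of each sample came from is not given in the sources used here, so p-values for slices measure only the spread between these pooled samples, which may be technical in part. Nor is it given which slice samples belong to which of the independent experiments. The main slice fit had no term for experiment and took the samples as independent. For brain tissue, 92 identifiers named no gene and held 0 counts. Some genes of the lists are not reported here.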

Additional observations from a re-analysis of the deposited data

Results flagged for a closer look

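Of 60 sets of libraries, 1 for each gene in each of the groups other than TNF, whose 11 libraries were too many for this check, 6 held a library far from the others of its group, where chance gives about 5% of sets. PBS replicate 3 of adult microglia was low for 4 genes: H2-D1 at 755 CPM (nearest library 912), Tap1 at 76.8 CPM (nearest 85.9), Tap2 at 166 CPM (nearest 175) and Nlrc5 at 8.13 CPM (nearest 11.2). This library was the lowest PBS library in 9 of the 10 genes, and how often it was the lowest over all genes was not measured. In medium slices, replicate 5 was high for H2-T23 at 162 CPM (nearest 119) and replicate 8 for Tap2 at 90.3 CPM (nearest 75.2). These sets share libraries and are not independent.

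The effect of LPS differed between adult microglia and brain tissue for 6 genes by the edgeR interaction term. The difference in log2 fold change, adult microglia minus brain, was -1.56 for H2-Q4 (adjusted p = 0.00488), -0.94 for H2-K1 (adjusted p = 0.0170), -0.77 for B2m (adjusted p = 0.00107), -0.69 for Tapbp (adjusted p = 0.00226), -0.68 for H2-D1 (adjusted p = 0.0467) and -0.66 for Tap2 (adjusted p = 0.00210). The H2-D1 call was lost in 12 of 16 fits without 1 library, with limma-voom and with no filter on low counts, and the H2-K1 call with limma-voom and with no filter.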

How the results depend on the processing

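Over the alternatives, 893 of 943 values for single genes kept their direction and side of the threshold, 25 lost the call, 22 gained one and 3 changed sign. The 3 were Tapbp with LPS in adult microglia, at 0.00 with all libraries and at 0.10, 0.03 and 0.07 without LPS replicate 2, LPS replicate 3 and PBS replicate 1, none past the test (-0.12 to 0.10 over the fits without 1 library). With no fold limit, GM-CSF called 8 of the 10 genes, and the genes called in all numbered 4476 for TNF (2353 with the limit), 2892 for GM-CSF (1222), 3486 for TNF against GM-CSF (1833), 6703 for LPS in adult microglia (3563), 1533 for LPS in brain (479) and 5136 for the interaction (3289). GM-CSF called 1 of the 10 with total counts and 785 genes in all within the title codes 2A and 2B. LPS in adult microglia called 2 of the 10 with no filter on low counts, and LPS in brain 288 genes in all with a minimum count of 50, which also tests fewer genes. Leaving out 1 library at a time gave 3 to 5 of the 10 genes for LPS in adult microglia, 9 to 10 in brain and 5 to 8 in the interaction, with 3373 to 4044, 412 to 543 and 3116 to 3663 genes in all. Beyond the cases where fewer genes were tested, the cause was not tested. Deviations of same-numbered samples correlated weakly, with r from 0.04 to 0.19 for TNF and medium (over 0.1 in 4 of 9 pairs, and 4 of 9 best with their own number) and from -0.08 to 0.14 in the other comparisons, so not every pair passed 0.1 and the numbers were not taken to pair the samples. With the replicate block 8, 2, 10, 4, 9 and 6 of the 10 genes were called for TNF, GM-CSF, TNF against GM-CSF, LPS in adult microglia, LPS in brain and the interaction, with 2415, 1256, 1826, 3452, 448 and 3222 genes in all. Depth limits H2-Q4 and Nlrc5 in slices and H2-M3, Tap1 and Nlrc5 in brain, which rest on few counts.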

Other observations

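H2-M2, the heavy chain gene with the largest change with TNF in slice microglia, was near 0 in the in vivo samples. It was at 0 to 0.0718 CPM in PBS microglia and 0.0856 to 1.10 CPM in LPS microglia, at 0 in 4 of 4 untreated brain libraries and at 0 to 0.225 CPM in LPS brain, and it was not tested in either table.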
